A study of Mus musculus with 19 samples.

Results

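Prostate tissue from wild-type mice was compared, gene by gene, with tissue that had been made from fibroblasts and grown as renal grafts. The study calls the latter reprogrammed prostate tissue. The 6 prostate samples (FS009 to FS014) and the 5 iEpt+NAF grafts (FS002, FS003, FS005, FS007 and FS008) were taken by their sample names from the table that holds both, and make up 11 of the 19 samples of the study. The study asked whether candidate master regulators of prostate development can turn fibroblasts into prostate, and this comparison shows what the resulting tissue lacked and what it had in excess of native prostate. All samples carry the strain label C57BL/6. The prostate samples were whole tissue from wild-type mice at 6 weeks of age. For the grafts, mouse embryonic fibroblasts (MEFs) received retroviruses with 4 human genes, c-MYC, KLF4, OCT4 and SOX2 (OSKM, the reprogramming factors of induced pluripotent cells), which gave induced epithelial (iEpt) cells in epithelial medium, and then lentiviruses with the set of master regulators that the study calls NAF, mouse Foxa1 among them. These cells were mixed with rat urogenital mesenchyme and grown for 6 weeks under the kidney capsule of male nude mice (CrTac:NCr-Foxn1 nu/nu) that carried testosterone pellets. The labels describe the iEpt+NAF grafts in the same words as the other renal grafts of the series, and which grafts received NAF comes from the study's supplement. The study describes the prostate samples as independent, and whether the grafts came from separate cell cultures and hosts is not given in the sources used here, so for the grafts the p-values may rest in part on technical spread.

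The mouse prostate is a secretory gland. Its luminal cells make large amounts of a few androgen-dependent proteins, pass them through the endoplasmic reticulum (ER) into the ducts, and sit on a layer of basal cells inside a sheath of smooth muscle. Urogenital mesenchyme instructs the overlying epithelium to take a prostate fate, and transcription factors such as FOXA1, HOXB13 and GATA2 are known to act on the androgen-dependent genes of the gland. A renal graft, by contrast, can hold cells of the graft, of the rat mesenchyme and of the host kidney.

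Values are log2 levels per gene as deposited, not divided by gene length, so levels are compared between samples and not between genes. In bulk tissue, fewer cells of a type and less RNA per cell cannot be told apart. The estimated number of reads on genes was 16.8 to 22.5 M in prostate and 17.4 to 23.4 M in the grafts. Shares of reads given below are estimates of the same kind. On the log2 scale 3 reads correspond to an estimated 1.68 to 2.34, depending on the sample, and values at or under it were treated as not detected. This limit covers counting error only. Values under it can be negative, since low values carry an added scatter. The prostate samples were alike (Spearman correlation across genes 0.958 to 0.968), whereas the grafts formed a set of FS002, FS003 and FS005 (0.952 to 0.964) and a pair of FS007 and FS008 (0.938), with 0.892 to 0.918 between them. Whether this split follows a culture, a host or a date is not given in the sources used here, so counts without either set are given below where they moved by over 1.5 times. Prostate sample FS009 held low levels of some genes that were abundant in the grafts. All 10 genes with a graft mean above 11 and at most 3 in the other 5 prostate samples were highest in FS009, at 2.11 to 8.61. No limit was set on FS009 in this choice, so its being highest is partly built in. The other prostate samples were not examined in the same way. The lowest value, 2.11 for Hnf4a, was under the value of 3 reads in FS009 (2.34). Without FS009, 1612 genes were higher in prostate (9.83% of those tested) and 3582 in the grafts (21.8%), against 1683 and 3757 with it.

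Of 16353 genes tested, 5440 passed (33.3%; limma, Benjamini-Hochberg adjusted p under 0.05 and a log2 fold change of at least 1). Of these, 1683 were higher in prostate (10.3% of the genes tested) and 3757 in the grafts (23%). The differences were also larger on the graft side, with a median size of 2.69 against 1.61 and with 1050 against 132 genes past a log2 fold change of 4. For 600 of the 3757 genes, no prostate sample had more than 3 reads. Such genes entered the test through the grafts alone, and their folds are given as lower bounds. Where only some samples of a group had no detected level, folds are not bounds, and their size rests in part on the scatter of low values. Quantile normalization turned the split to 3001 genes higher in prostate (18.4%) and 2567 higher in the grafts (15.7%). The 10 most abundant genes took 16.2 to 24.4% of reads in prostate and 3.88 to 4.97% in the grafts. Of the gene lists below, the polyamine, luminal and basal, lymphocyte and housekeeping lists changed the sign of their median under that scaling. Without FS007 and FS008, 1785 genes were higher in prostate (11%) and 4752 in the grafts (29.2%), and without FS002, FS003 and FS005 the numbers were 2392 (15.7%) and 2841 (18.6%). In 91 of the 184 named genes that passed, leaving out 1 library moved the fold by more than 1.5 times, in 77 of them only when that library was a graft. No named gene that passed changed direction when 1 library was left out, and 21 lost their call without at least 1 library.

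**Figure D1:**
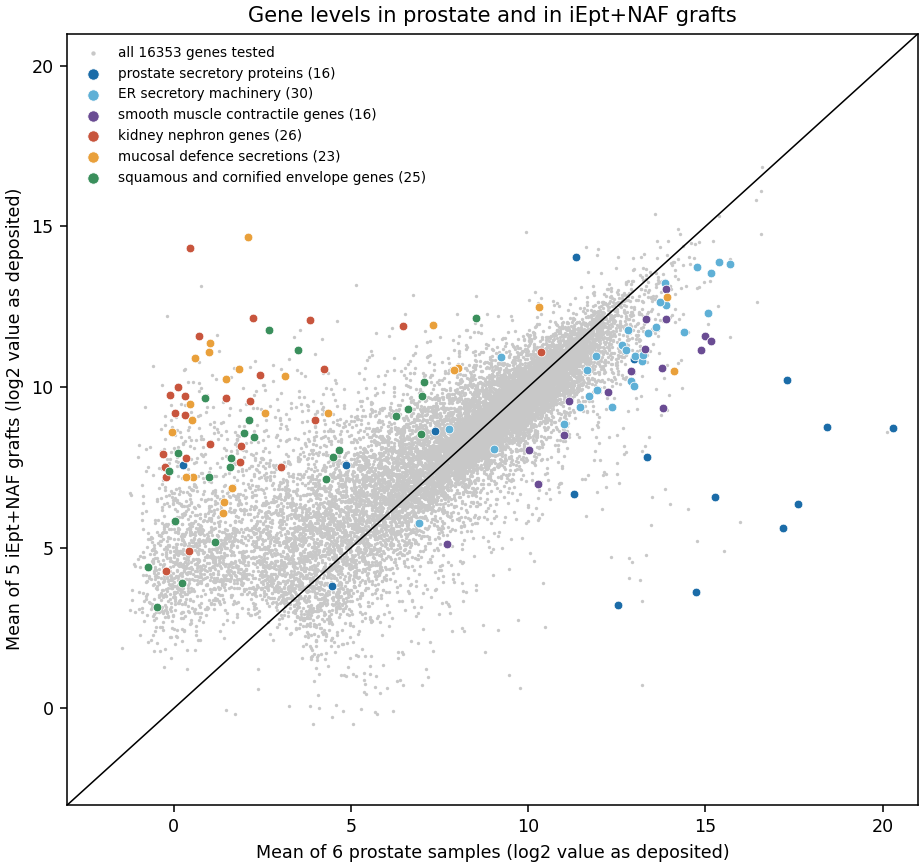
Mean log2 value as deposited of each of 16353 genes in 6 prostate samples (x axis) and 5 iEpt+NAF grafts (y axis), with the line of equal levels and 6 gene lists in colour. Prostate secretory proteins lie far to the right of the line with exceptions above it, ER and smooth muscle genes lie on the prostate side with few exceptions, and most kidney, mucosal and squamous genes lie far above it.

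The secretory proteins of the prostate were what the grafts lacked most. Of 16 listed genes, 11 were higher in prostate and 4 in the grafts, with a median difference of 6.31 (prostate minus grafts) against -0.11 over all genes tested. Under quantile normalization 12 were higher in prostate and 2 in the grafts. Together the 16 genes took 9.05 to 14.3% of reads in prostate (median 12.6%) and 0.21%, 0.302%, 0.191%, 0.101% and 0.132% in the grafts. Graft values are listed throughout in the order FS002, FS003, FS005, FS007, FS008. Sbp, a spermine-binding protein (mm9 assembly, chromosome 17, 24079342 to 24087147), ran from 19.62 to 20.67 in prostate (median 20.42) and was at 8.81, 11.13, 7.30, 8.32 and 7.99 in the grafts. Every graft lay far below every prostate sample, with FS003 the highest. Prostate exceeded the grafts by 11.58 on the log2 scale (SE 0.56, adjusted p = 1.35e-07 from limma), a 3056-fold difference, and 12.18 without FS003. Pbsn encodes Probasin, the classical androgen-dependent secretory protein of the rodent prostate (chromosome X, 75083240 to 75098962). It ran from 16.88 to 18.32 in prostate (median 17.60) and was at 8.32, 6.68, 5.001, 6.29 and 5.43 in the grafts, lower by 11.26 on the log2 scale (SE 0.51, adjusted p = 1.11e-07 from limma). Tgm4, the transglutaminase that forms the copulatory plug, was at 17.49 to 19.04 in prostate (median 18.58) and at 9.92, 9.56, 7.70, 8.45 and 8.19 in the grafts, a log2 difference of 9.68 (SE 0.42, adjusted p = 9.84e-08 from limma). These 3 genes were thus detected in every graft, at a small part of their prostate level.

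Msmb, which encodes the secreted β-microseminoprotein, was detected in some grafts only. It ran from 13.47 to 15.75 in prostate (median 14.99) and was at 7.08, 5.36, 2.44, 2.32 and 0.87 in the grafts, the last of these under the value of 3 reads (log2 difference 11.11, SE 1.01, adjusted p = 6.4e-06 from limma; 10.43 without FS008). The defensin gene Defb50 showed the same order, from 14.07 to 16.21 in prostate and at 10.53, 9.79, 6.72, 3.33 and 2.57 in the grafts, so that FS007 and FS008 lay furthest from prostate (log2 difference 8.68, SE 1.35, adjusted p = 0.000266 from limma, and 9.67 without FS002). Spink3 and Azgp1 had smaller mean differences than these genes, with 7.45 to 11.34 and 5.61 to 9.37 in the grafts against medians of 17.47 and 13.39 in prostate. Not all members of the list were lost. Clu, which encodes the secreted chaperone clusterin, was higher in the grafts (14.41, 15.11, 14.37, 13.21 and 13.07 against 10.96 to 12.13, a log2 fold change of 2.68 over prostate, SE 0.36, adjusted p = 0.0001 from limma). Ceacam10 and Acpp were also higher in the grafts, by 2.71 and 1.25, with overlap between the groups for Acpp. Folh1, better known as PSMA and also a gene of the kidney proximal tubule, was at 8.80, 5.33, 8.17, 5.40 and 10.20 in the grafts and not detected in any prostate sample, so at least 43-fold higher in the grafts.

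The 12 genes with the largest difference towards prostate, among those that passed with no overlap, were Ms4a5, 9530002B09Rik, Sbp, 9530053A07Rik, Pbsn, Msmb, Fam115e, 5430419D17Rik, A630095E13Rik, Tgm4, Gm5615 and 9530003J23Rik. Ms4a5, a member of the MS4A family of membrane proteins on chromosome 19 (11348356 to 11358303), ran from 11.87 to 13.88 in prostate and was at 1.20, 2.02, 1.01, 0.88 and -1.54 in the grafts. The unnamed transcript 9530053A07Rik ran from 18.93 to 20.83 in prostate and was at 9.19, 9.23, 7.92, 8.48 and 8.19 in the grafts (log2 difference 11.53, SE 0.37, adjusted p = 1.78e-08 from limma). Several abundant prostate genes were lower by nearly the same amount within FS005, FS007 or FS008. In FS007 the value minus the prostate mean was -11.97 for Sbp, -11.65 for 9530053A07Rik, -11.31 for Pbsn, -11.94 for 9530002B09Rik, -11.72 for Fam115e and -11.94 for Defb50, whereas it was -9.99 for Tgm4, -9.86 for Spink3 and -7.76 for 5430419D17Rik. The same differences in FS008 were -12.30, -11.95, -12.18, -13.01, -12.73 and -12.70 for the first 6 genes. For Tgm4, Spink3 and 5430419D17Rik they were -10.25, -6.52 and -7.65 in FS008. In FS005 they were -12.99, -12.21, -12.60, -12.88 and -12.11 for Sbp, 9530053A07Rik, Pbsn, 9530002B09Rik and Fam115e, but -8.55 for Defb50. Tgm4, Spink3 and 5430419D17Rik were at -10.74, -5.96 and -13.70 in FS005. Reads made in the graft and reads carried over from a prostate library cannot be told apart for the genes with nearly equal differences.

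**Figure D2:**
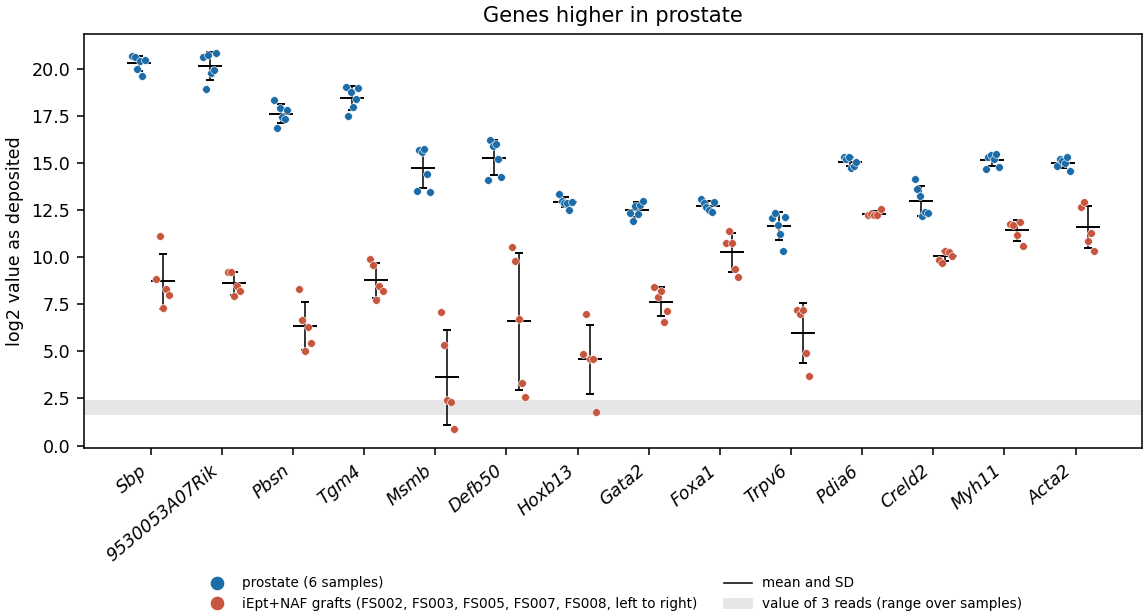
Log2 value as deposited (y axis) of 14 genes in 6 prostate samples (blue) and 5 iEpt+NAF grafts (red, FS002, FS003, FS005, FS007 and FS008 from left to right), with mean and SD, and the value of 3 reads in grey. No graft reached a prostate sample in any of the 14 genes, and the difference between the group means ran from 2.48 (Foxa1) to 11.58 (Sbp) on the log2 scale.

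Transcription factors of the prostate and urogenital tract were lower in the grafts by smaller amounts. Of 21 listed genes, 14 were higher in prostate and 5 in the grafts, with a median difference of 1.58. With 1 library left out 11 to 15 were higher in prostate, fewest without FS008. Hoxb13, the homeobox gene that marks the prostate and the caudal gut (chromosome 11, 96055630 to 96058761), ran from 12.52 to 13.35 in prostate (median 12.90) and was at 4.86, 6.99, 4.59, 4.61 and 1.797 in the grafts. All grafts were far below prostate, with FS003 the highest and FS008 under the value of 3 reads. The log2 difference was 8.34 (SE 0.67, adjusted p = 2.93e-06 from limma), and 7.65 without FS008 or 8.95 without FS003. Other posterior Hox genes were less affected, with log2 differences of 2.47 for Hoxa13, 2.45 for Hoxd13 and 1.45 for Hoxa10.

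Gata2, a zinc finger factor of the urogenital tract, ran from 11.93 to 13.003 in prostate and was at 8.43, 7.88, 8.201, 6.54 and 7.16 in the grafts, 29.2-fold lower (log2 difference 4.87, SE 0.33, adjusted p = 9.5e-07 from limma). Gata3 followed it with a wider spread, at 9.63, 9.40, 8.81, 4.74 and 6.13 in the grafts against 11.40 to 12.48 in prostate (log2 difference 4.30, SE 0.80, adjusted p = 0.000901 from limma, 3.55 without FS007). Foxa1, the pioneer factor that was introduced by virus, was still lower in the grafts, at 10.77, 11.40, 10.76, 9.37 and 8.97 against 12.41 to 13.06 (log2 difference 2.48, SE 0.39, adjusted p = 0.000269 from limma). Reads of the mouse Foxa1 virus and of the endogenous coding region are summed in this value and cannot be told apart from it alone. The study's supplement compared reads of the untranslated and coding regions for this purpose, which was not done here. Spdef, which directs secretory differentiation, and Xbp1, which drives the secretory ER, were also lower, by 2.25 and 1.10. The 5 genes higher in the grafts were Foxa2, Pax2, Pax8, Klf5 and Elf3. Foxa2, a factor of the early prostate bud and of other endoderm, was at 8.22, 7.46, 9.10, 4.21 and 2.55 in the grafts and not detected in prostate, at least 17.8-fold higher. Pax2 and Pax8, which build the nephron and the Wolffian duct, were at 2.67 to 6.71 and 4.28 to 8.91 in the grafts and at or near the value of 3 reads in prostate. Klf5 and Elf3, general epithelial factors, were higher by 2.76 and 2.68 with little spread between grafts.

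Androgen-responsive genes showed no common direction. Of 20 listed genes, 5 were higher in prostate and 5 in the grafts, beside 10.3% and 23% of all genes tested. The other 10 did not pass, and the median difference was -0.14, close to that of all genes. The number higher in the grafts was 8 without FS002, FS003 and FS005. The calcium channel gene Trpv6 had the largest difference towards prostate, with 10.34 to 12.37 in prostate and 7.18, 6.98, 7.17, 4.89 and 3.71 in the grafts (log2 difference 5.65, SE 0.65, adjusted p = 3.26e-05 from limma). Slc45a3 (prostein), Tmprss2 and Ell2 were higher in prostate by 2.67, 1.76 and 1.53. Ndrg1, Pmepa1 and Steap2 were among those higher in the grafts, by 3.45, 2.08 and 2.01. Fkbp5, which steroid hormones are known to induce, split the grafts. It was at 14.56 and 14.11 in FS007 and FS008, above all prostate samples (11.502 to 13.01), and at 11.27, 11.11 and 11.497 in FS002, FS003 and FS005, below all of them. Its mean difference of -0.15 (SE 0.64, adjusted p = 0.856 from limma) describes neither set, and without FS007 and FS008 it was 1.07 (adjusted p = 0.00625 from limma). Of 7 tested genes of polyamine metabolism, through which the prostate makes the spermine of seminal fluid, 1 was higher in prostate (Srm, by 1.06) and 1 in the grafts (Smox, by 1.17). Srm did not pass without FS003 or FS005, nor Smox without FS007. Without FS007 and FS008 the counts were 1 and 0, and without FS002, FS003 and FS005 they were 0 and 2. The rate-limiting enzyme gene Odc1 did not pass, at 10.87 to 11.44 in prostate and 11.61, 10.44, 12.499, 11.56 and 12.14 in the grafts.

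The ER machinery that translocates and folds secreted proteins was lower in the grafts almost as a whole. Of 30 listed genes, 25 were higher in prostate and 0 in the grafts by limma, with a median difference of 1.65. Leaving out any graft but FS007 made 1 gene higher in the grafts. Every prostate sample was above every graft in 27 of the 30, against 17.3% of all genes tested. The 30 genes took 1.56 to 2.36% of reads in prostate and 0.759 to 0.945% in the grafts. The split among the grafts was not seen here, since 26 genes were higher in prostate without FS007 and FS008 and 23 without FS002, FS003 and FS005, with 1 higher in the grafts each time. Under quantile normalization 21 were higher in prostate and 0 in the grafts by limma. Pdia6, a protein disulfide isomerase (chromosome 12, 17273351 to 17291576), ran from 14.72 to 15.31 in prostate (median 15.12) and was at 12.24, 12.28, 12.24, 12.22 and 12.53 in the grafts. The 5 grafts lay within 0.31 of each other, and all were below prostate (log2 difference 2.77, SE 0.13, adjusted p = 1.15e-07 from limma). Dnajc3, an ER co-chaperone, showed the same pattern at 14.06 to 14.76 against 11.48 to 11.81 (2.69, SE 0.14). The stress-inducible chaperone cofactors Sdf2l1, Creld2 and Manf differed by 2.99, 2.94 and 2.23, the translocon and signal peptidase subunits Ssr4 and Sec11c by 2.40 and 2.70, and the stress sensor Ern1 by 2.17. Of the 5 genes that did not pass, Canx was lower in every graft than in every prostate sample but by 0.63 only. Ero1l was at 13.60 and 12.52 in FS007 and FS008 and at 9.71, 9.56 and 9.32 in the other grafts, against 8.85 to 9.50 in prostate (log2 difference -1.70, SE 0.72, adjusted p = 0.0618 from limma).

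The promoters of several of these genes hold the ER stress response element, the sequence through which cells raise chaperone genes when the ER is loaded, and the copies are shown because most of the genes that hold them were higher in prostate. The letters CCAAT and CCACG with a spacer of 9 bases of any kind were searched on both strands from 250 bases before to 50 after the RefSeq start of each gene (GRCm38.p6). Of 21 listed genes with such a window, 7 hold the element, against 39 of 32851 windows of all genes (0.119%). A listed gene counted if any window of it matched, whereas the share over all genes is of single windows. The numbers are thus not in like units, here and for the motifs below, and enrichment was not tested. Both parts of the element are in capitals, with 5 bases on either side in lower case, and each place in mm9 is an exact match of the printed bases.
Hspa5, chr2:34627540-34627568, plus strand: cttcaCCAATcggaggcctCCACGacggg
Pdia6, chr12:17273292-17273320, plus strand: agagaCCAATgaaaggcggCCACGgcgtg
Dnajc3, chr14:119337044-119337072, plus strand: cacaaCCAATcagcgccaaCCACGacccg
Creld2, chr15:88649945-88649973, minus strand: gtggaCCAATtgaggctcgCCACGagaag
Calr, chr8:87370969-87370997, plus strand: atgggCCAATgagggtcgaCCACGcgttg
Hsp90b1, chr10:86168378-86168406, minus strand: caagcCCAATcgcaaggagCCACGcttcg
Hsp90b1, chr10:86168273-86168301, plus strand: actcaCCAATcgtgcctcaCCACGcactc
Canx, chr11:50139297-50139325, minus strand: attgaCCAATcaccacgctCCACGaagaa
Of the 7 genes, 6 were higher in prostate and Canx did not pass, beside 25 of all 30 listed genes higher in prostate. Hspa5, the chaperone BiP, ran from 15.22 to 16.53 in prostate and was at 13.57, 13.61, 13.90, 14.26 and 13.86 in the grafts (log2 difference 1.86, SE 0.24, adjusted p = 7.66e-05 from limma). Hsp90b1 and Calr, 2 further ER chaperones, differed by 1.60 and 1.48. The 14 other genes with a window do not have these letters in it, among them genes with differences as large. In the same windows, the androgen response half-site TGTTCT was found in 5 of 10 prostate secretory genes and in 19% of all windows, and the inverted pair AGAACA and TGTTC with a spacer of 3 bases in 0 of 10 and in 0.0487%. The serum response motif known as the CArG box was found in 0 of 12 smooth muscle genes and in 1.63% of all windows, and the HNF1 site (GTTAAT and TTAA with a spacer of 2 bases) in 1 of 18 kidney genes, Hnf4a, and in 0.14%. These matches describe letters and not binding.

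Smooth muscle genes were also lower in the grafts. Of 16 listed contractile genes, 14 were higher in prostate and 0 in the grafts by limma, with a median difference of 2.45, and 14 to 15 were higher with any 1 library left out. The list took 0.756 to 1.4% of reads in prostate and 0.437%, 0.389%, 0.238%, 0.185% and 0.131% in the grafts. The stroma of the grafts came from rat mesenchyme, whose reads count here only where they align to mouse genes, and how much this lowered the values was not tested. By immunostaining, the study judged smooth muscle actin and vimentin normal in iEpt+NAF grafts. Myh11, the smooth muscle myosin (chromosome 16, 14194620 to 14291501), ran from 14.70 to 15.50 in prostate (median 15.26) and was at 11.77, 11.68, 11.20, 11.88 and 10.58 in the grafts. The grafts were evenly low, and FS008 was lowest (log2 difference 3.74, SE 0.24, adjusted p = 8.44e-07 from limma). Cnn1, which encodes calponin, fell further, from 13.41 to 14.21 in prostate to 10.33, 10.53, 8.83, 9.47 and 7.56 (log2 difference 4.46, SE 0.45, adjusted p = 1.32e-05 from limma). Tagln and Acta2 differed by 3.72 and 3.40. Myocd, the coactivator that switches this gene programme on, was lower by 2.60, at 4.53, 6.51, 4.85, 5.17 and 4.47 against 6.92 to 8.33. Desmin (Des), which skeletal muscle also makes, did not pass, since FS002, FS003 and FS005 were at 13.21, 12.70 and 13.06, near the prostate range of 12.95 to 13.59, and only FS007 and FS008 were lower, at 11.69 and 9.89.

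Fibroblast genes differed less, and by graft. Of 16 genes, 2 were higher in prostate (Dcn, by 2.198, and Col6a1, by 1.06) and 1 in the grafts (Vim, by 1.44), and the collagen gene Col1a1 did not pass, at 13.63, 14.06, 12.23, 12.78 and 11.77 against 11.48 to 12.86. The call of Col6a1 was lost without any of 8 libraries, and 1 to 5 genes were higher in prostate with 1 library left out, most without FS002 or FS003. Without FS002, FS003 and FS005, 8 were higher in prostate and 0 in the grafts by limma, and without FS007 and FS008 the counts were 1 and 3. The median of the list was below the prostate mean in FS005, FS007 and FS008, by values of -0.75, -1.04 and -1.47. Of 12 endothelial genes, 5 were higher in the grafts and 0 in prostate by limma, with a median difference of -0.95. The number was 8 without FS007, 3 without FS002, FS003 or FS014, 8 without both FS007 and FS008, and 2 without FS002, FS003 and FS005 or under quantile normalization. Cdh5, the adhesion molecule of vessel walls, was at 10.38, 9.81, 8.90, 8.25 and 9.26 in the grafts against 7.604 to 8.17 in prostate (log2 fold change 1.32 over prostate, SE 0.31, adjusted p = 0.00424 from limma). Vwf was highest in FS007 and FS008, at 11.58 and 10.65, against 7.70 to 8.57 in prostate. Host vessels and vessels of the graft cannot be told apart.

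Most general epithelial genes did not pass, and the counts depended on the graft. Of 16 luminal and basal genes, 1 was higher in prostate and 2 in the grafts, beside 10.3% and 23% of all genes tested. The other 13 did not pass, and the median difference of the list was 0.03. The number higher in the grafts was 4 without FS008 and 5 without FS007 and FS008, whereas 6 were higher in prostate without FS002, FS003 and FS005. Cdh1, which encodes E-cadherin, was at 12.86 to 13.92 in the grafts and 12.76 to 13.17 in prostate (log2 difference -0.33, SE 0.18, adjusted p = 0.146 from limma). The luminal keratin pair did not move together. Krt8 was at 12.43, 13.45, 13.48, 13.84 and 13.10 in the grafts against 12.49 to 13.34, and did not pass, whereas its partner Krt18 was lower in every graft, at 12.51, 12.93, 12.34, 13.44 and 10.91 against 13.95 to 14.37 (log2 difference 1.71, SE 0.35, adjusted p = 0.00164 from limma). Krt7, a keratin of urothelium and other simple ducts (chromosome 15, 101241474 to 101260744), was higher in every graft, at 12.31, 12.42, 11.56, 14.49 and 13.41 against 8.26 to 8.74 in prostate (log2 fold change 4.31 over prostate, SE 0.42, adjusted p = 9.59e-06 from limma). The basal keratins depended on the graft. Krt5 was at 13.73, 13.12, 11.67 and 11.90 in 4 grafts, above all prostate samples (10.51 to 11.18), and at 5.13 in FS008. Krt14 and Krt15 were likewise lowest in FS008, at 5.73 and 4.26, against 8.66 to 9.44 and 11.13 to 11.92 in prostate. The mean differences of these 3 genes, -0.16, -1.01 and 0.74, did not pass, and they changed to -1.65, -2.10 and -0.92 without FS008.

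Kidney genes were in large excess in the grafts. Of 26 listed genes of the nephron, 25 were higher in the grafts and 0 in prostate by limma, and the median log2 fold change of grafts over prostate was 7.59, or 6.31 with the 11 genes not detected in prostate set to their bound. Those 11 were in the test only because of the grafts. The list took 0.895%, 0.0562%, 1.84%, 0.0806% and 1.6% of reads in the grafts and 0.00582 to 0.00938% in prostate. Kap, the androgen-regulated protein of the proximal tubule (chromosome 6, 133799873 to 133803685), had the largest difference of all genes that passed without overlap. It was at 15.84, 9.77, 16.996, 12.34 and 16.64 in the grafts, under the value of 3 reads in 5 prostate samples and at 6.12 in FS009. FS002, FS005 and FS008 were thus high, FS007 lower and FS003 lowest, an order that differs from the split of the libraries seen elsewhere. The log2 fold change over prostate was 13.86 (SE 1.62, adjusted p = 3.71e-05 from limma), and 14.99 without FS003. With 5 prostate samples under the value of 3 reads, the size of this fold, and so its rank, rests in part on the scatter of low values. The phosphate transporter gene Slc34a1 was also lowest in FS003 and next lowest in FS007, at 13.24, 7.19, 14.72, 10.44 and 15.21, as was the organic anion transporter Slc22a6 at 10.91, 5.20, 12.62, 8.22 and 13.07. Umod, which encodes uromodulin of the thick ascending limb, was at 13.06, 4.93, 12.05, 6.09 and 12.56 and not detected in prostate, at least 192-fold higher. Aqp2 of the collecting duct was present too, at 4.54 to 9.71. Aqp1, which vessels also express, was the member that did not pass. Kidney of the host and kidney-like cells of the graft cannot be told apart, and the share of host tissue in each sample was not tested.

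Hnf4a did not follow the order of Kap. This regulator of kidney tubule, gut and liver (chromosome 2, 163332544 to 163398646) was at 11.20, 11.55, 12.75, 10.08 and 12.41 and not detected in any prostate sample, at least 696-fold higher in the grafts, and FS003, lowest for Kap, was near the middle. Cldn2 and Guca2b, which tubule and gut share, stayed at 11.45 to 11.91 and 9.42 to 10.46 in 4 grafts and fell to 7.44 and 6.54 in FS007. The 12 genes with the largest difference towards the grafts included Kap, Ltf, Acsm2, Kcnj16, Hnf4a, Ugt3a2, Cldn2, Muc5b, Keg1, Klk1 and Guca2b, of which Ltf and Muc5b are mucosal secretions and most of the others are known from kidney or gut. Klk1, the tissue kallikrein, was at 11.30, 9.81, 11.85, 8.04 and 11.75 in the grafts and at -2.07 to 2.71 in prostate (log2 fold change 10.25, SE 0.96, adjusted p = 7.97e-06 from limma).

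**Figure D3:**
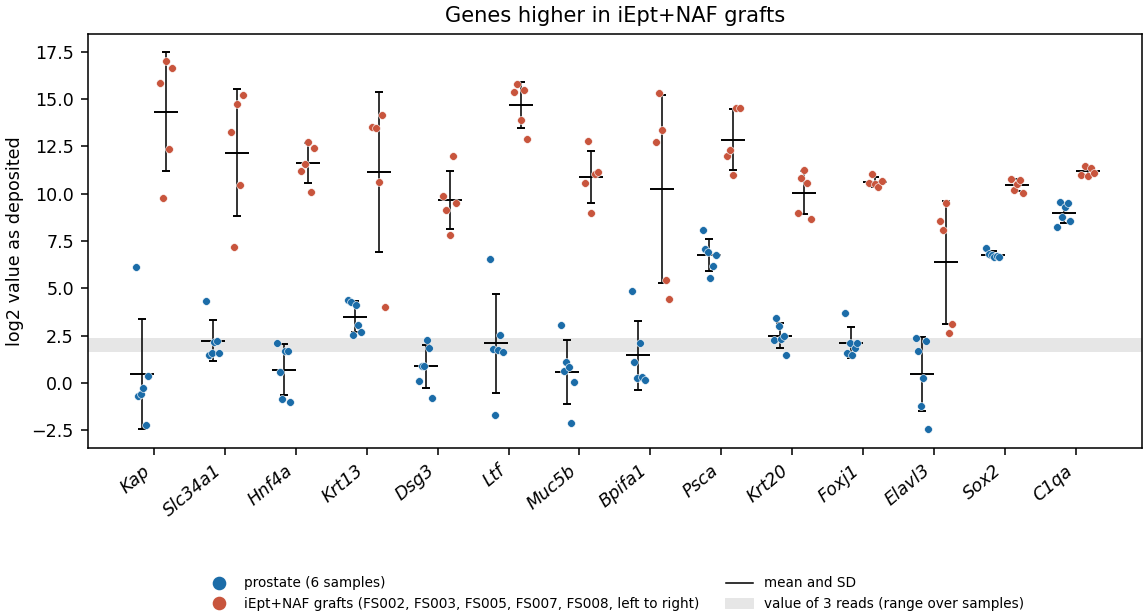
Log2 value as deposited (y axis) of 14 genes in 6 prostate samples (blue) and 5 iEpt+NAF grafts (red, FS002, FS003, FS005, FS007 and FS008 from left to right), with mean and SD, and the value of 3 reads in grey. Kap and Slc34a1 are lowest in FS003, Krt13 is near prostate in FS008, Bpifa1 and Elavl3 are low in FS007 and FS008, and Foxj1 and Sox2 are alike in all 5 grafts.

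Squamous epithelial genes were also in excess. Of 25 tested genes of stratified and cornifying epithelium, 25 were higher in the grafts, and the median log2 fold change over prostate was 5.14, or 3.68 with the 6 undetected in prostate at their bound. The number was 18 to 25 with 1 library left out, 19 under quantile normalization and 12 of 21 without FS002, FS003 and FS005. Of the 2 other listed genes, 1 was under the minimum level and 1 was not in the table. The excess was in 4 grafts, since the list took 0.426%, 0.368%, 0.0995% and 0.426% of reads in FS002, FS003, FS005 and FS007 and 0.022% in FS008, against 0.00425 to 0.00857% in prostate. Krt13, the keratin of moist stratified epithelia such as oesophagus and bladder (chromosome 11, 99978641 to 99982880), was at 13.53, 13.46, 10.60, 14.18 and 4.02, so that FS008 lay within the prostate range of 2.51 to 4.38. The log2 fold change was 7.64 (SE 1.55, adjusted p = 0.00156 from limma), and 9.43 without FS008. Sprr3 and Cnfn of the cornified envelope were at 7.93 to 11.35 and 8.08 to 9.70 in the same 4 grafts and not detected in FS008 or in prostate. The desmosomal cadherin Dsg3 and the wound-associated keratin Krt6a were high in all 5 grafts, FS008 included. Dsg3 was at 9.88, 9.15, 7.81, 11.98 and 9.51 against -0.80 to 2.29 in prostate (log2 fold change 8.79, SE 0.74, adjusted p = 3.7e-06 from limma), and Krt6a was at 12.41, 11.32, 10.55, 13.96 and 10.64 against -0.59 to 6.29. The keratin gene Krt1, known from epidermis, was highest in FS002 and FS003, at 11.60, 10.39, 7.94, 5.53 and 3.63 against 3.96 to 5.27 and so was the cornified envelope gene Lor, at 9.56, 10.52, 6.62, 5.37 and 3.63 against 3.72 to 4.87. Most hair follicle genes were too low to test: of 15 listed genes, 2 reached the level required for testing and 0 passed by limma, or 3 of 15 with no filter on low values. Of those 2, 1 was higher in prostate under quantile normalization or without FS002, FS003 and FS005, and 1 of 3 was higher in the grafts without FS009 or FS011.

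Mucosal defence secretions were in excess in the grafts. Of 23 tested genes, 21 were higher in the grafts and 1 in prostate, with a median log2 fold change over prostate of 6.66, or 6.44 with the 2 undetected in prostate at their bound. The counts were 15 of 19 and 2 without FS002, FS003 and FS005, and 2 were higher in prostate without FS003 or FS005 alone. The list took 0.705%, 2.34%, 0.951%, 0.477% and 0.13% of reads in the grafts and 0.155 to 0.23% in prostate, so that FS008 was below the prostate range. Ltf, which encodes the iron-binding protein lactoferrin (chromosome 9, 110921796 to 110945270), was at 15.39, 15.77, 13.87, 15.48 and 12.91 in the grafts. In prostate it was at -1.69 to 2.51 in 5 samples and at 6.55 in FS009, and the log2 fold change was 12.59 (SE 1.15, adjusted p = 6.64e-06 from limma) or 13.48 without FS009. Most of those 5 values were under the value of 3 reads, so the size of this fold rests in part on scatter too. The gel-forming mucin Muc5b was at 10.58, 12.78, 8.96, 11.01 and 11.12 against -2.13 to 3.08 (10.29, SE 0.85, adjusted p = 3.55e-06 from limma). Airway-type products depended on the graft set. Bpifa1 was at 12.73, 15.32 and 13.37 in FS002, FS003 and FS005 and at 5.42 and 4.45 in FS007 and FS008, Bpifb1 was at 11.36, 12.997, 11.70, 4.402 and 2.50, and Dmbt1 at 12.57, 15.32, 14.60, 6.66 and 6.27. Scgb1a1, the club cell protein, was high in all 5, at 11.44, 12.79, 11.30, 8.99 and 8.32 against 0.96 to 4.07. The antimicrobial lectins Reg3g and Reg3b were at 15.56 and 15.47 in FS003 and at 4.27 and 5.11 in FS008, and each lay in 1 graft at or under the highest prostate value, that of FS009. Agr2, a disulfide isomerase of mucin-making cells, was the member higher in prostate, at 13.69 to 14.41 against 9.22 to 11.75 (log2 difference 3.61, SE 0.39, adjusted p = 2.24e-05 from limma). Pigr, the receptor that carries antibodies into secretions, did not pass (13.35 to 14.44 in prostate and 12.33, 14.38, 13.76, 12.48 and 11.07 in the grafts).

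Urothelial genes were mixed. Of 9 genes, 4 were higher in the grafts and 2 in prostate, and the median log2 fold change over prostate was 2.95. Without FS007 and FS008 the counts were 5 and 1. Psca was at 11.98, 12.29, 10.97, 14.53 and 14.51 in the grafts against 5.53 to 8.07 (log2 fold change 6.10, SE 0.67, adjusted p = 2.36e-05 from limma), and Krt20, the keratin of superficial urothelial cells and of gut, was at 8.99, 10.82, 11.26, 10.55 and 8.68 against 1.49 to 3.41 (7.55, SE 0.52, adjusted p = 1.05e-06 from limma). Both were high in every graft. The regulator Grhl3 was also higher, by 6.04. The uroplakins that line the bladder did not follow. Upk1a was lower in every graft, at 10.12, 9.86, 8.95, 4.32 and 3.53 against 11.40 to 12.74 in prostate (log2 difference 4.79, SE 1.16, adjusted p = 0.00446 from limma, 3.84 without FS008). Upk1b was lower by 1.86 with overlap, Upk3a was higher in the grafts by 3.24 with overlap, and Upk2 and Upk3b did not pass.

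Gut and stomach genes were in excess mainly in FS002, FS003 and FS005. Of 18 tested gut and stomach genes, 14 were higher in the grafts and 0 in prostate by limma. The median log2 fold change was 5.28, or 3.70 with the 7 undetected in prostate at their bound. Without FS002, FS003 and FS005, 9 genes were tested and 5 were higher in the grafts. The list took 0.176%, 0.801%, 0.144%, 0.0127% and 0.00987% of reads in the grafts, highest in FS003, and 0.000658 to 0.00105% in prostate. The gastric proteases Cym and Pgc reached 15.46 and 14.96 in FS003 and were at 4.06 and 3.53 in FS008. The intestinal mucin Muc13 was at 7.50, 12.74, 12.80, 6.91 and 3.19, and the fatty acid carrier Fabp1 at 4.83, 10.73, 10.33, -0.31 and 1.65. Cdx2, the master regulator of intestine, was at 3.96, 9.07, 8.33, -0.43 and 0.07 and did not pass (adjusted p = 0.0764 from limma). Of the same list, Vil1 and Cldn18 were detected in all grafts, with the brush border gene Vil1 at 9.42, 11.72, 11.79, 7.82 and 10.11 against 1.95 to 4.03 in prostate, and the tight junction gene Cldn18 of stomach at 9.19, 11.09, 8.80, 9.97 and 6.49 and not detected in prostate (at least 124-fold higher). Of 16 tested liver and pancreas genes, 11 were higher in the grafts, with 8 of the 16 undetected in prostate, and 7 of 10 were higher without FS003. Of 9 tested without FS002, FS003 and FS005, 7 were higher in the grafts and 1 in prostate. The list took 0.0724%, 0.115%, 0.174%, 0.0141% and 0.15% of reads in the grafts, lowest in FS007, and at most 0.00122% in prostate. Apoa1 was at 8.05, 13.51, 12.44, 4.06 and 8.41, and the liver albumin gene Alb at 4.22, 8.11, 3.66, 2.54 and 3.08. Cyp2e1, which kidney also makes, was like Kap lowest in FS003 and next lowest in FS007, at 13.13, 8.26, 14.06, 10.46 and 14.34.

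Ciliated cell genes were higher in the grafts, their regulator evenly and their structural genes unevenly. Of 15 tested genes, 12 were higher in the grafts, with a median log2 fold change of 4.01, or 2.74 with the 5 undetected in prostate at their bound. Without FS002, FS003 and FS005, 1 of 8 tested genes was higher in the grafts and 1 in prostate. Foxj1, the master regulator of motile cilia (chromosome 11, 116192018 to 116196713), was at 10.57, 11.02, 10.49, 10.34 and 10.66 in the grafts and at 1.47 to 3.69 in prostate. The 5 grafts were within 0.68 of each other (log2 fold change 8.47, SE 0.37, adjusted p = 9.84e-08 from limma). Structural genes of motile cilia were not even across grafts. The tektin gene Tekt1 was at 7.32, 8.22, 6.79, 2.97 and 2.13, the dynein light chain gene Dynlrb2 at 7.55, 8.70, 6.77, 4.11 and 2.85, and Sntn at 6.502, 8.24, 5.24, 3.16 and 0.19. FS003 was highest and FS007 and FS008 lowest for each of them, while Foxj1 in FS008 was at 10.66.

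Skeletal muscle and neural genes separated the sets of grafts. Of 22 skeletal muscle genes, 12 were higher in the grafts and 0 in prostate by limma, with a median log2 fold change of 3.97. The number was 6 without FS002, FS003 or FS005, 17 without FS007 or FS008, 8 without FS011 or FS014, and 22 of 22 without both FS007 and FS008. Without FS002, FS003 and FS005 together, 1 of 15 was higher in the grafts and 5 in prostate, and the median turned to 0.91 towards prostate. The list took 0.781%, 0.454%, 0.509%, 0.0331% and 0.0105% of reads in the grafts and 0.031 to 0.0597% in prostate. Myod1, which commits cells to muscle, was at 6.97, 6.68, 5.96, 1.15 and 1.16, and the troponin gene Tnnt3 at 13.06, 12.27, 12.88, 4.26 and 3.86. Tnnt3 lost its call without any of 8 libraries, and Myod1 without FS002, FS003 or FS005. In prostate FS012 was the highest sample for this list, with a median of 6.05 against 3.13 to 4.10 in the other 5, and 14 of the 22 were higher in the grafts without FS012. Actn2 was the member with no overlap, at 11.17, 10.96, 11.09, 7.90 and 8.31 against 1.57 to 2.74 in prostate (log2 fold change 7.57, SE 0.63, adjusted p = 3.63e-06 from limma). Of 21 neuronal and glial genes, 14 were higher in the grafts, with a median of 3.88. The number was 10 without FS002, FS003 or FS005 and 21 of 21 without both FS007 and FS008, and without FS002, FS003 and FS005 it was 4 of 14, with 3 higher in prostate. The RNA-binding protein gene Elavl3 was at 8.56, 8.09, 9.51, 2.63 and 3.11, and the oligodendrocyte factor Olig2 at 6.73, 7.09 and 6.68 in 3 grafts and not detected in FS007, FS008 or prostate. The glial filament gene Gfap reached 13.62, 14.34 and 12.08 in FS002, FS003 and FS005 and was at 5.23 and 4.60 in FS007 and FS008, below the prostate range of 5.32 to 5.94. Nefl, a neurofilament gene, was high in all 5, at 9.29, 8.59, 9.79, 9.08 and 6.19 against -0.89 to 4.22 (6.85, SE 0.99, adjusted p = 0.000158 from limma).

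**Figure D4:**
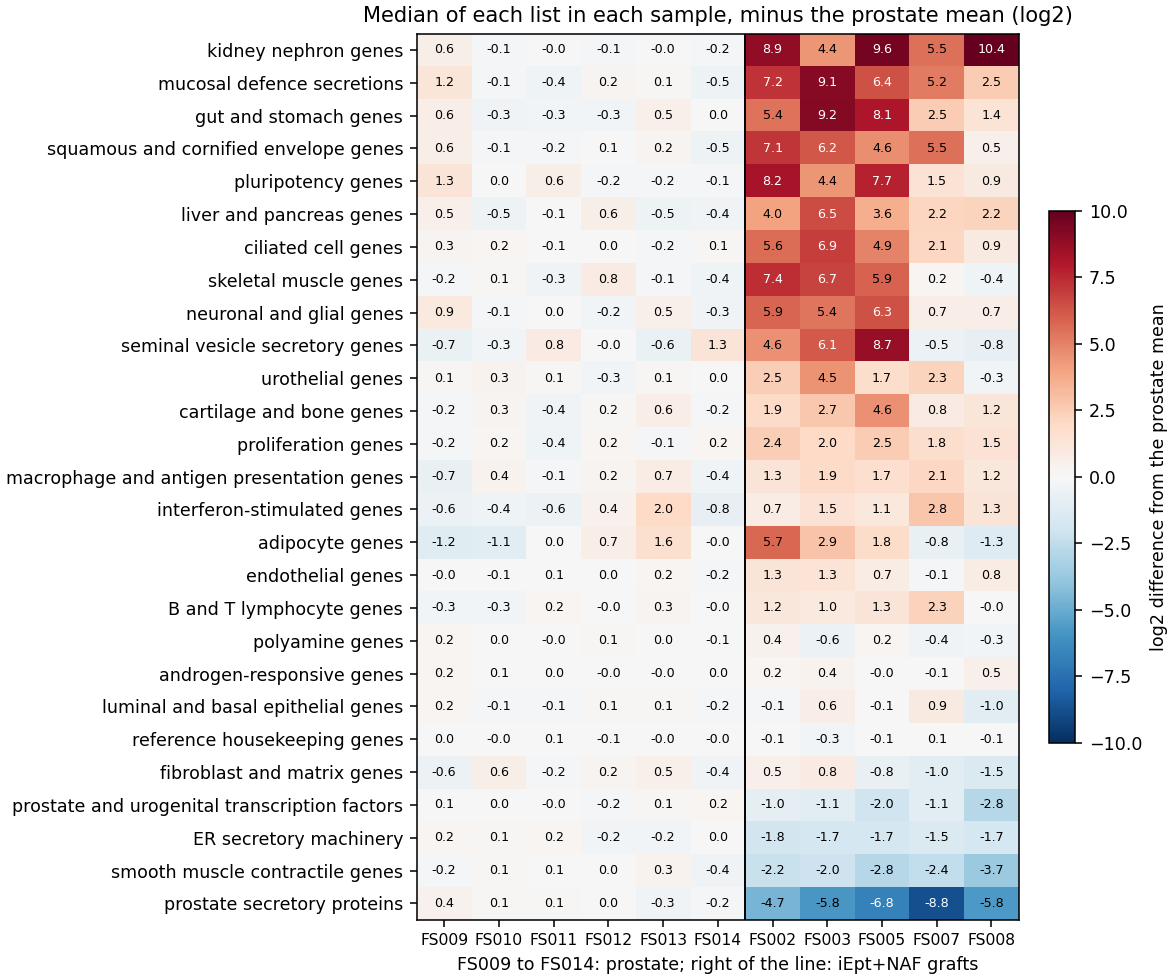
Median over the tested genes of each list in each sample, minus the mean of the 6 prostate samples (log2, colour from blue for lower to red for higher), with prostate samples left of the line and grafts right of it. FS002, FS003 and FS005 are high for skeletal muscle, neural and seminal vesicle genes, FS007 and FS008 are near prostate for them, FS003 is lowest for kidney genes, and all 5 grafts are low for prostate secretory, ER and smooth muscle genes.

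Seminal vesicle genes, which mark the neighbouring gland of the Wolffian duct, had the same split. Of 6 tested genes 0 passed by limma and 3 did with all 17 samples in the fit, and 5 of 7 passed without FS007 and 3 of 7 without FS008. Svs2 was at 7.99, 8.33, 12.58, 2.49 and 2.05 in the grafts against 0.92 to 4.27 in prostate (adjusted p = 0.0527 from limma), and Svs4 and Pate4 were also highest in FS005, at 12.12 and 12.33. Without FS007 and FS008, 7 of 7 tested genes were higher in the grafts. Cartilage and bone genes were mixed. Of 13 tested, 6 were higher in the grafts, 8 without FS007 or FS008, 9 without both, and 3 of 9 without FS002, FS003 and FS005. The list median minus the prostate mean was 1.94, 2.67 and 4.59 in FS002, FS003 and FS005. It was 0.85 and 1.18 in FS007 and FS008. The share of reads, by contrast, was highest in FS007 and FS008, at 0.0736% and 0.0905%. The link protein gene Hapln1 was highest in FS008 and FS007, at 10.83 and 9.06, against 5.20, 6.22 and 8.28 in the other grafts and 2.58 to 4.20 in prostate (log2 fold change 4.37, SE 0.85, adjusted p = 0.00123 from limma). The matrix protein gene Chad, at 13.39 and 13.53 in FS007 and FS008, was at 6.15 in FS005, below prostate at 7.11 to 7.73. The call of Chad was lost without any of 9 libraries. Adipocyte genes gave 1 higher in prostate and 2 in the grafts of 11 tested. In the grafts 4 were higher without FS008 and 9 without FS007 and FS008, and 2 of 6 were higher in prostate without FS002, FS003 and FS005. Of the 2 genes, 1, Pck1, is also a gene of kidney tubule and had the order of Kap (11.24, 7.35, 13.24, 9.20 and 12.42).

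Pluripotency genes were detected in the grafts. Of 11 tested, 9 were higher in the grafts and 0 in prostate by limma, and 7 of the 11 were undetected in prostate. The median log2 fold change was 4.72, or 3.66 with those at their bound. Without FS002 5 of 9 passed, without FS005 5 of 10, and without both of these and FS003 3 of 3 were higher in the grafts. Sox2 was even across grafts, at 10.75, 10.21, 10.50, 10.73 and 10.01 against 6.64 to 7.12 in prostate (log2 fold change 3.66, SE 0.16, adjusted p = 9.84e-08 from limma), and it is also a gene of neural and airway cells. Pou5f1, which encodes OCT4, was at 9.79, 4.52 and 8.96 in FS002, FS003 and FS005 and not detected in FS007, FS008 or prostate, and its call was lost without FS002 or FS005. Lin28a, Tdgf1 and L1td1 had the same split, at 9.75, 9.52 and 9.49 in FS002 and at -0.59, 1.52 and 1.54 in FS008. Lin28a and Tdgf1 each lost their call without any of 8 libraries. Esrrb and Utf1 did not follow that split, since both were high in FS008 as well. Esrrb was at 8.32, 4.67, 7.22, 2.89 and 6.35 and Utf1 at 8.48, 3.63, 7.51, 2.35 and 7.48. Nanog was at 5.43, 2.16, 5.84, 1.08 and -0.14 and did not pass. The introduced OSKM factors were human, and reads of them that align to the mouse genes cannot be told apart from endogenous reads in these values. The study's supplement reports human SOX2 reads in all of these grafts, most in FS007 and FS008. It reports human OCT4 reads in all of them but FS008.

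Macrophage genes were higher in the grafts. The hosts were nude mice, which lack a thymus. Of 16 macrophage and antigen presentation genes, 13 were higher in the grafts and 1, H2-Eb1, in prostate, with a median log2 fold change over prostate of 1.71. With all 17 samples in the fit, MEF included, 5 were higher in the grafts. C1qa, a complement subunit made by macrophages, was at 10.98, 11.48, 10.96, 11.35 and 11.10 against 8.26 to 9.55 (log2 fold change 2.18, SE 0.24, adjusted p = 2.38e-05 from limma), and Cd68 was at 8.73, 10.06, 9.24, 9.69 and 9.19 against 6.31 to 8.004. Both were even across grafts. H2-Ab1 and H2-Eb1, class II genes of the same locus, moved apart, with H2-Ab1 higher in the grafts by 1.82 and H2-Eb1 lower by 1.72. Of 10 tested B and T cell genes, 3 were higher in the grafts (Cd4, Cd79b and Zap70) and 1 in prostate (Ms4a1), beside 23% and 10.3% of all genes tested. The number in the grafts was 1 without FS003, FS005, FS010 or FS014, 6 without FS008, 1 of 9 without FS002, FS003 and FS005, and 0 by limma under quantile normalization. Zap70 lost its call without any of 8 libraries and Cd79b without any of 5. Cd4 was at 4.91, 5.28, 5.87, 7.41 and 6.62 against 2.91 to 3.68. Interferon-stimulated genes, 11 of 17 higher in the grafts with a median of 1.56, overlapped with prostate throughout. Oasl2 was highest in FS007 at 13.66, and prostate FS013 at 10.96 lay above 3 of the grafts (10.10, 10.93, 10.37, 13.66 and 11.44). Under quantile normalization 6 of them passed, and without FS007 and FS008 6 were higher in the grafts and 1 in prostate.

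Genes of dividing cells were higher in the grafts as a group. Of 18 proliferation genes, 15 were higher in the grafts and 0 in prostate by limma, with no overlap in 15 against 19.8% of all genes tested, and a median log2 fold change of 2.05. The number was 15 to 16 with 1 library left out, 18 without FS007 and FS008 and 14 without FS002, FS003 and FS005. Plk1, a mitotic kinase, was at 9.10, 9.28, 9.64, 9.26 and 8.23 against 5.46 to 6.68 in prostate (log2 fold change 3.11, SE 0.28, adjusted p = 5.74e-06 from limma). Mki67, the gene of the Ki67 antigen, was at 10.72, 10.68, 11.24, 10.78 and 10.27 against 8.61 to 10.03 (1.43, SE 0.25, adjusted p = 0.000654 from limma). FS008 was the lowest graft for both genes and still above every prostate sample. Reference housekeeping genes served as a background, with 22 of 23 not passing, a median difference of 0.11 and 1 gene, Tfrc, higher in the grafts by 1.38. The grafts had 3 higher of the 23 without FS002, FS003 and FS005, and without FS007 and FS008 0 were by limma and 1 was higher in prostate.

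**Figure D5:**
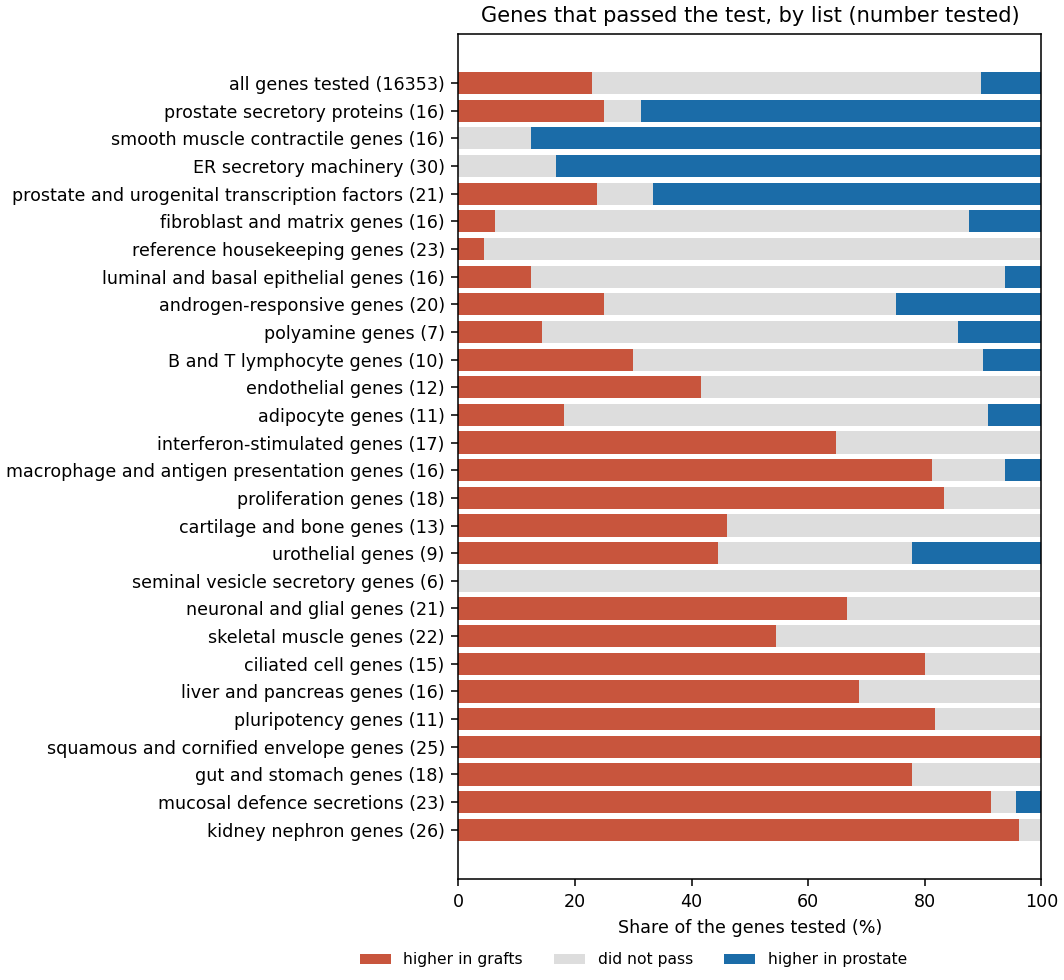
Share of the tested genes of each list (number in brackets; lists with at least 5 tested genes) that were higher in iEpt+NAF grafts (red), higher in prostate (blue) or did not pass (grey), with all 16353 genes at the top. Prostate secretory proteins, smooth muscle, ER and urogenital transcription factor genes stand on the prostate side with 11 of 16, 14 of 16, 25 of 30 and 14 of 21, and kidney, squamous and mucosal genes on the graft side with 25 of 26, 25 of 25 and 21 of 23.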

How the data were processed

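RNA was sequenced on an Illumina HiSeq as single-end reads, and the authors deposited normalized values per gene on a log2 scale, 1 column per sample, for 23284 genes. The authors normalized raw counts with DESeq, and bcl2fastq 1.8.4, TopHat, Cufflinks and mm9 are named in the submitters' processing notes. The counter and the log2 transformation are not given in the sources used here. In every sample 100% of values from 11.5 to 15 were whole reads (tolerance 0.05) times a constant of the sample plus 1.61, but only about 10% from 6 to 9. So counts were not recovered and no count test was run. Depths were estimated from that constant.

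The 6 prostate samples were compared with the 5 grafts by limma 3.58.1 (R 4.3.3; lmFit, eBayes with trend, two-sided) over the 16353 genes whose linear mean reached 10. On simulated data, drawn as independent normal values with each gene's own SD within groups, 139 of 200 genes with a log2 change of 2 were recovered, with 3 false calls. The split among the grafts and the floor of low values were not simulated. The number of false calls therefore does not carry over to the data. Named genes are up to 8 per list with the largest change that passed, the 12 largest in each direction without overlap, and defining members that did not pass. Spink3, Azgp1, Clu, Ceacam10, Acpp, Hoxa10, Hoxa13, Hoxd13, Spdef, Xbp1, Hspa5, Hsp90b1, Calr, Aqp2, Krt1, Lor, Agr2, Upk2, Upk3b, Alb, Gfap, H2-Eb1 and Mki67 were added after their values were seen. The comparison and the 28 gene lists were chosen with earlier results of these data known. GENCODE M1 (mm9) gave the positions of genes. The 6 MEF samples entered 1 alternative only, and 2 graft columns of a second table were not used. Some results are not reported here.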

Additional observations from a re-analysis of the deposited data

Results flagged for a closer look

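In 9 of 112 sets of 5 or 6 samples, each a list median or a named gene in 1 group, the highest or lowest sample stood far from the others. Chance gives about 1 in 20. Graft FS008 was lowest for Krt5, at 5.13 (11.67 to 13.73 in the other 4 grafts), for the median of the squamous genes, at 3.63 (8.08 to 9.77), and for that of the urogenital transcription factors, at 7.02 (8.25 to 8.59). Graft FS007 was lowest for the tight junction gene Cldn2, at 7.44 (11.45 to 11.91), and for Guca2b, which encodes uroguanylin, at 6.54 (9.42 to 10.46). Prostate sample FS009 was highest for the kidney genes Kap, at 6.12 (-2.21 to 0.37 in the other 5), and Kcnj16, at 1.55 (-1.41 to -0.70, all under the value of 3 reads), and for the median of the mucosal genes, at 4.49 (1.24 to 2.202). Prostate sample FS012 was highest for the median of the skeletal muscle genes, at 6.05 (3.13 to 4.10). The sources of these values were not tested.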

How the results depend on the processing

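No paired analysis was possible because the labels number no replicates, and the numbers used here only follow the order of the samples. The count of genes that passed, 5440, moved to 3369 with a linear mean of at least 100 and to 9093 with no minimum fold change. Genes higher in prostate, 1683, moved to 3001 under quantile normalization and to 3978 with no minimum fold change, and genes higher in the grafts, 3757, moved to 2061 with a linear mean of at least 100. The other alternatives kept these counts within 1.5 times. Of the 184 named genes that passed, 139 kept their direction and call under every alternative run. The most calls were lost without FS002, FS003 and FS005 (18), without FS005 (15), without FS003 (14) and under quantile normalization (14). Of the named genes that passed, Zap70 changed direction, to 0.25 under quantile normalization. The other changes of direction were in genes that did not pass. Krt5 (prostate minus grafts, -0.16) ranged from -1.65 to 0.50 with 1 library left out, above 0 without FS002, FS003 or FS007, and was 2.43 without FS002, FS003 and FS005. Fkbp5 (-0.15) ranged from -0.50 to 0.36, above 0 without FS007, FS008 or FS013, and was 1.07 without FS007 and FS008. Krt14 went to 0.48 and Aqp1 to 0.0065 without FS002, FS003 and FS005. Krt15 went to -0.92 without FS008 and to -1.56 without FS007 and FS008. The causes were not tested. Leaving out these sets of grafts was chosen after seeing the data. With an estimated 16.8 to 23.4 M reads per sample, genes under 3 reads could not be compared.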
